A study of Homo sapiens with 6 samples.

Results

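The genes described are 9 genes of cellular zinc handling, chosen by symbol from the 46427 genes listed in each library. They are the metal sensor MTF1, the metallothionein genes MT2A, MT1X, MT1E and MT1G, the zinc exporter gene SLC30A1, and the zinc importer genes SLC39A6, SLC39A10 and SLC39A14. All 9 were found once in each of 6 RNA-seq libraries. Of the 6 libraries, 3 came from K562 cells given 10 µM HR-19011 (a code name; the structure is not described here), and 3 from K562 cells given the vehicle, 0.1% DMSO, for 24 h in both groups. The DMSO percentage of the HR-19011 cultures is not given in the labels. K562 is an established human erythroleukemia line, labelled wild type and of bone marrow origin in both groups, so every library is of 1 line and no untreated or second line stands beside it. Whether the 3 libraries of a group were separate cultures is not stated in the labels. All p-values therefore refer to the spread between these libraries, which may be technical.

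Values are FPKM, fragment counts scaled by transcript length and library size, with no read counts, so the depth behind each value is unknown and a value listed as 0 may be a failed estimate. Summed FPKM lay between 420661 and 427819 in HR-19011 libraries and between 456639 and 467595 in vehicle libraries. The 10 erythroid marker genes used to check the label were all above 1 FPKM in both groups. Their summed levels were 4285 to 4509 FPKM in HR-19011 libraries and 9913 to 10098 FPKM in vehicle libraries. Of the 10, 9 were called lower with HR-19011 (limma, adjusted p under 0.05, described below), TAL1 being the other. Among all tested genes 38.0% were called lower and 84.4% were called in either direction. Of 8 markers of other cell types, 6 were under 1 FPKM in every library, among them MS4A1 at 0. The exceptions were the epithelial marker EPCAM, at 20.3 ± 1.37 FPKM in HR-19011 libraries and 32.5 ± 0.767 FPKM in vehicle libraries, and the T cell marker CD3D, at 11.9 ± 0.263 FPKM in HR-19011 libraries and 7.40 ± 1.54 FPKM in vehicle libraries (SD, n = 3 each).

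Zinc is held in balance in a cell by buffering and by transport. Metallothioneins are small cysteine-rich proteins that bind zinc, copper and cadmium in the cytosol. Transporters of the ZnT (SLC30) family move zinc out of the cytosol, either out of the cell or into organelles, and those of the ZIP (SLC39) family bring it in. When free zinc rises, the zinc finger protein MTF1 binds short metal response elements in the promoters of metallothionein genes and of SLC30A1 and activates them. In mouse erythroid precursors, GATA1 is known to regulate Slc30a1 and Slc39a8.

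The metal response element is a feature that can be read from promoter sequence. Among metallothionein genes, only MT2A, MT1X, MT1H, MT1B and MT4 had a promoter that could be searched. Its core was searched as TGCACNC and TGCGCNC on both strands of RefSeq promoters (GRCh38.p14), each 300 bases long, with 250 bases before the transcription start and 50 from it. Of the 9 members, 6 had a promoter in the table. MT1E, MT1G and SLC39A14 had no promoter there and were not searched. Of all 35116 promoters, 29.6% held at least 1 core, 0.601% at least 4 and 0.0199%, 7 promoters, at least 8. MT2A held 8 cores, MT1X 4, SLC30A1 2 and SLC39A6 1, MTF1 held none, and SLC39A10 held none at its first listed start and 1 at its second. A match is only a run of letters and does not show binding. The 250 bases before the start of the 2 metallothionein genes with measurable RNA, and of the exporter gene SLC30A1, are shown 5′ to 3′ on the gene's strand because these genes are the usual targets of MTF1 and differed in response. Capitals mark the cores, read on either strand.
MT2A, chr16:56608334-56608583, plus strand: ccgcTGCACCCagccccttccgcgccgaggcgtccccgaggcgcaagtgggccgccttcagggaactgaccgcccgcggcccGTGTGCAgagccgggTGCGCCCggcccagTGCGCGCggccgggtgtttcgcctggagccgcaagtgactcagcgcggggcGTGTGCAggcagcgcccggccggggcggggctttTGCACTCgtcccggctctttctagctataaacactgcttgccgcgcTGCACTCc
MT1X, chr16:56682220-56682469, plus strand: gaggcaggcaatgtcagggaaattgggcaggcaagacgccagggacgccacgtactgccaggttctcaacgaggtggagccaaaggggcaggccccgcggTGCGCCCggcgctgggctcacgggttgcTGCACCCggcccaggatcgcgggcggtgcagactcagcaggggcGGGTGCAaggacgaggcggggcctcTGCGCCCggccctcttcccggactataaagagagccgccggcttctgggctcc
SLC30A1, chr1:211579162-211579411, minus strand: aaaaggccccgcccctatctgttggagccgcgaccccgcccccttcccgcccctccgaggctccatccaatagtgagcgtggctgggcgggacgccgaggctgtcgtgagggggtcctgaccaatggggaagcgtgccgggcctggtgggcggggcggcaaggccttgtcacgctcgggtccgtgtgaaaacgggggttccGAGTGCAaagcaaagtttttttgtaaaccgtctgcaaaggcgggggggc

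In MT2A the 7 cores shown began at positions -246, -168, -153, -139, -88, -54 and -8 from the start, and 1 more began beyond it, at 31. The 4 cores of MT1X began at -150, -122, -78 and -53. The cores of SLC30A1 began at -49 and, after the start, at 25. The antioxidant response element, searched as TGACNNNGC on both strands and present in 13.3% of all promoters, had 1 match in each of these 3 promoters. The C/EBP-ATF response element was searched as TGATGNAAN on both strands and was present in 3.61% of promoters. It had no match in the promoters of the 6 members searched, which do not include SLC39A14. No match overlapped another in the zinc gene promoters searched.

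**Figure D1:**
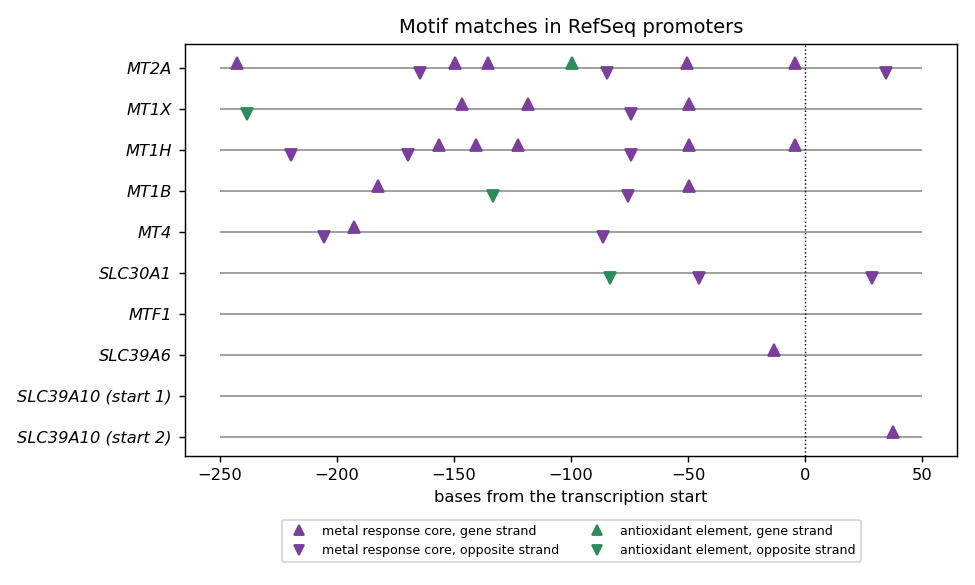
Positions of motif matches in RefSeq promoters of those members and other metallothionein genes that had one listed, in bases from the transcription start (dotted line). Upward triangles are matches on the gene's strand and downward triangles on the opposite strand. MT2A and MT1H carry 8 metal response cores each, MT1X 4, MT1B and MT4 3 each, and MTF1 none.

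MTF1, the sensor itself, was slightly lower after HR-19011. Its level was 2.61, 2.94 and 2.66 FPKM in the HR-19011 libraries, against 3.18, 3.09 and 3.27 FPKM in the vehicle libraries. All HR-19011 libraries lay below all vehicle libraries, by a margin smaller than the spread among the HR-19011 libraries. The log2 fold change, on the log2(FPKM + 1) scale used for all genes and for which positive means higher with HR-19011, was -0.16 (SE 0.0537, adjusted p = 0.0191). Adjusted p-values are from the moderated test of limma with Benjamini-Hochberg adjustment over 11856 tested genes, and genes under 0.05 are called. The MTF1 call was lost without HR-19011 replicate 1 (adjusted p = 0.0669), without HR-19011 replicate 3 (adjusted p = 0.061), without vehicle replicate 3 (adjusted p = 0.0607) and after conversion to TPM (adjusted p = 0.22), each in limma. Other scalings made the MTF1 difference larger, at -0.35 after TMM scaling (adjusted p = 0.000238) and -0.49 after quantile normalization (adjusted p = 2.61e-05), both in limma. MTF1 lies on chromosome 1 from 37809574 to 37859592 (RefSeq, GRCh38.p14). In bulk RNA, fewer cells that express a gene and less of its RNA per cell cannot be told apart, here and below.

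Of the metallothionein genes, MT2A was higher after HR-19011. MT2A, the most abundant member of the family in these cells, stood at 15.0, 13.99 and 13.4 FPKM in the HR-19011 libraries, against 5.98, 5.35 and 6.15 FPKM in the vehicle libraries. The groups did not overlap, and the lowest HR-19011 library was above the highest vehicle library by more than the spread within either group. MT2A averaged 14.1 ± 0.803 FPKM with HR-19011 and 5.83 ± 0.420 FPKM with vehicle (SD, n = 3 each), a 2.42-fold difference. On the log2 scale the rise was 1.15 (SE 0.0583), and limma gave an adjusted p = 1.17e-07. Its log2 fold change was above that of 90.7% of tested genes. MT2A lies on chromosome 16 from 56608584 to 56609497.

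MT1X, from the same cluster on chromosome 16 (56682470 to 56684196), did not share this rise. Its levels were 2.73, 2.34 and 3.00 FPKM in the HR-19011 libraries, against 2.88, 3.55 and 4.26 FPKM in the vehicle libraries. The highest HR-19011 library was above the lowest vehicle library, so the groups overlapped. The log2 fold change was -0.30 (SE 0.111, adjusted p = 0.0317 in limma). MT1X kept its sign under every alternative run, but the call did not hold under all of them. It was lost with a difference of much the same size without HR-19011 replicate 1 (-0.31, adjusted p = 0.0581), without vehicle replicate 2 (-0.30, adjusted p = 0.075) and without a filter on low values (-0.30, adjusted p = 0.113), each in limma. It was lost with a smaller difference without HR-19011 replicate 2 (-0.23, adjusted p = 0.11), without vehicle replicate 3 (-0.19, adjusted p = 0.105) and after conversion to TPM (-0.24, adjusted p = 0.12), each in limma. It was larger after TMM scaling (-0.49, adjusted p = 0.00286) and quantile normalization (-0.62, adjusted p = 0.000708), both in limma. The ratio of MT2A to MT1X within a library was 5.49, 5.98 and 4.47 in the HR-19011 libraries, against 2.08, 1.51 and 1.44 in the vehicle libraries. This ratio does not depend on the scaling of a library, and its groups did not overlap. It does depend on how reads that match more than 1 metallothionein gene were divided, which is not stated. An exact permutation test of 3 against 3 libraries cannot give a p under 0.1, so none is given for the ratio.

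The other 2 metallothionein members were at or near 0. MT1E was listed at 0.282, 0.0433 and 0 FPKM in the HR-19011 libraries, against 0, 0 and 0.149 FPKM in the vehicle libraries. MT1G was listed at 0 in all 6 libraries. Neither reached the mean of 1 FPKM needed for the test. In a limma fit without that filter MT1E had a log2 fold change of 0.07 (adjusted p = 0.62), with overlapping groups, so no difference was detectable in it.

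Few genes of the wider family had values above 0. Of 11 metallothionein genes, 6 were listed at 0 in every library: MT1A, MT1B, MT1G, MT1M, MT3 and MT4. MT1H, whose promoter holds as many metal response cores as that of MT2A, was listed at 0 in all libraries but vehicle replicate 3, at 0.180 FPKM. MT1F was listed at 0.363, 0.527 and 0.747 FPKM in the HR-19011 libraries, against 0, 0.321 and 0 FPKM in the vehicle libraries. The groups did not overlap for MT1F, and it was called only in the limma fit without a filter (log2 fold change 0.49, adjusted p = 0.0344), a fit that called 52% of all its genes. The 4 pseudogenes MT1L, MT1JP, MT1DP and MT1IP were at 0 throughout.

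Metallothionein genes are close in sequence, and how the authors divided reads that match several of them is not stated, so values of single genes are uncertain. The sum over all 11 genes, which depends less on that division, was 18.4, 16.9 and 17.1 FPKM in the HR-19011 libraries, against 8.86, 9.23 and 10.7 FPKM in the vehicle libraries. The HR-19011 sums were all above the vehicle sums, by 1.82-fold in the mean, or 1.53-fold after TMM scaling. MT2A made up 80.9% ± 2.41 of the sum with HR-19011 and 60.9% ± 5.73 with vehicle (SD, n = 3 each).

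**Figure D2:**
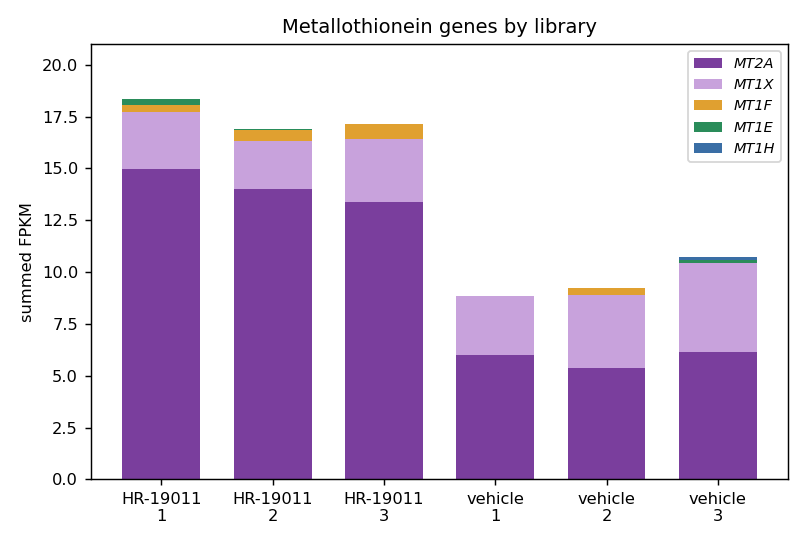
Summed FPKM of metallothionein genes in each library, stacked by gene, with the 6 genes at 0 in every library left out. The HR-19011 bars reach 16.9 to 18.4 FPKM and the vehicle bars 8.86 to 10.7 FPKM, and the MT2A segment is the part that differs most between them.

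SLC30A1, which encodes ZnT1, the zinc exporter of the plasma membrane, went the opposite way to MT2A. It stood at 3.88, 3.92 and 3.75 FPKM in the HR-19011 libraries, against 6.83, 6.15 and 6.25 FPKM in the vehicle libraries. The groups were well apart, with little spread among the HR-19011 libraries. SLC30A1 averaged 3.85 ± 0.0852 FPKM with HR-19011 and 6.41 ± 0.367 FPKM with vehicle (SD, n = 3 each) and so fell 1.66-fold in mean FPKM. Its log2 fold change, on the log2(FPKM + 1) scale, which shrinks changes of low genes, was -0.61 (SE 0.0498, adjusted p = 3.00e-06 in limma). SLC30A1 lies on chromosome 1 from 211571568 to 211579161. MT2A and SLC30A1, both textbook targets of MTF1, thus differed in direction, and each kept its direction and its call under all 15 alternatives tried. Whether MTF1 had a part in either difference was not tested.

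The 3 importer members gave 3 different results. SLC39A14 encodes ZIP14, a plasma membrane importer of zinc that also carries manganese and iron, and in mouse liver is known to be induced by ATF4 and ATF6 during endoplasmic reticulum stress. It was the most abundant member in both groups, at 29.0, 29.0 and 29.9 FPKM in the HR-19011 libraries, against 19.8, 18.7 and 19.2 FPKM in the vehicle libraries. All HR-19011 libraries were higher, with a gap several times the spread within a group. SLC39A14, on chromosome 8 from 22367278 to 22434129, rose 1.52-fold (log2 fold change 0.58, SE 0.0337, adjusted p = 2.80e-07 in limma), with a smaller log2 fold change of 0.35 after TMM scaling.

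SLC39A10 encodes ZIP10, a plasma membrane importer whose gene is repressed by MTF1 in mouse and zebrafish. Its level was 5.84, 5.74 and 5.90 FPKM in the HR-19011 libraries, against 8.09, 7.09 and 7.62 FPKM in the vehicle libraries. The groups did not overlap, and the vehicle libraries were the more spread. SLC39A10, on chromosome 2 from 195613029 to 195737700, fell 1.30-fold (log2 fold change -0.33, SE 0.0506, adjusted p = 0.000232 in limma). The log2 fold change was larger after TMM scaling (-0.55) and quantile normalization (-0.51), and smaller after conversion to TPM (-0.24, adjusted p = 0.00251 in limma).

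SLC39A6 encodes ZIP6, the partner with which ZIP10 forms a heteromer. It was at 7.21, 7.79 and 7.73 FPKM in the HR-19011 libraries, against 8.29, 7.98 and 8.20 FPKM in the vehicle libraries. The groups lay side by side without overlap, but the difference was not called (log2 fold change -0.10, 95% confidence interval -0.19 to 0.00, adjusted p = 0.0664 in limma). It lies on chromosome 18 from 36108531 to 36129340. In limma it was called lower after TMM scaling (log2 fold change -0.31, adjusted p = 0.000109) and after quantile normalization (-0.24, adjusted p = 0.000624), and after conversion to TPM its sign turned (0.02, adjusted p = 0.744).

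**Figure D3:**
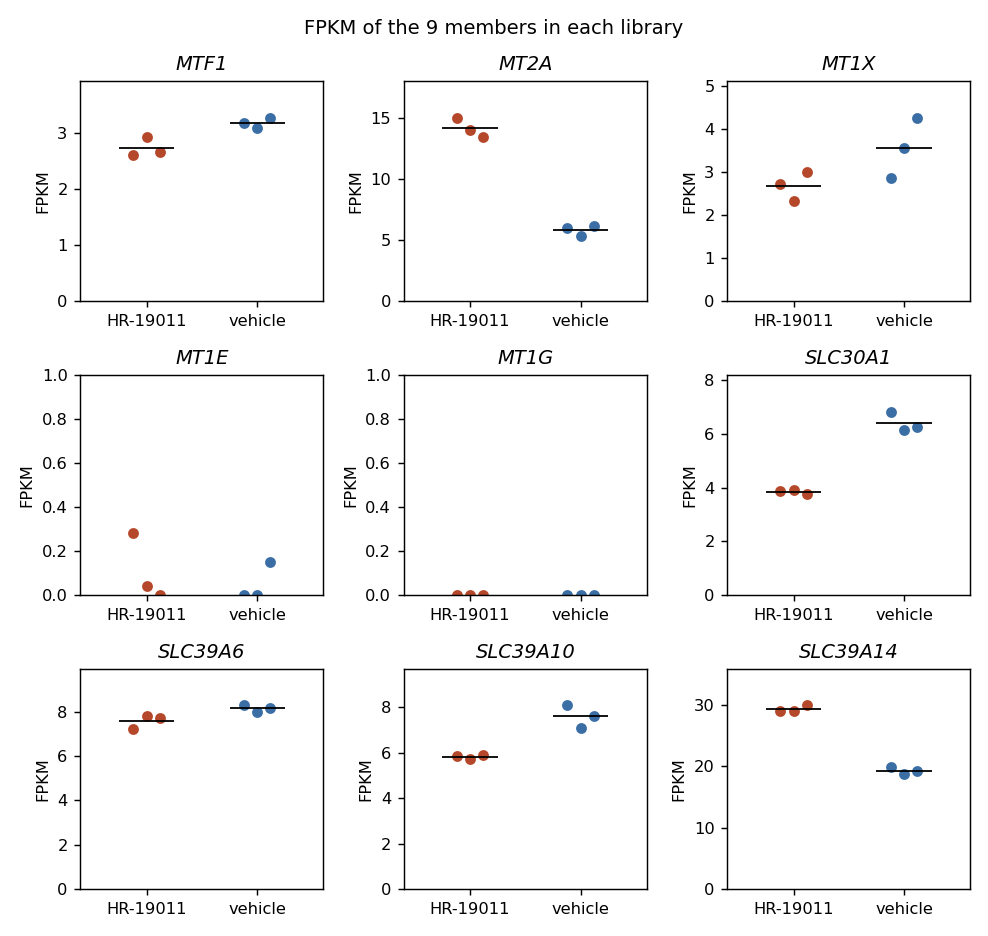
FPKM of each member in the 3 HR-19011 (red) and 3 vehicle (blue) libraries, with a line at the group mean where the gene was tested; vertical scales differ and all start at 0. MT2A and SLC39A14 sit higher with HR-19011, SLC30A1 and SLC39A10 lower, and MT1X overlaps between groups.

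Since FPKM is per length, the members' levels can be put in order, though the values of single metallothionein genes are uncertain, as given above. In HR-19011 libraries the order was SLC39A14, MT2A, SLC39A6, SLC39A10, SLC30A1, MTF1, MT1X, MT1E and MT1G, and only the neighbours MTF1 and MT1X, and MT1E and MT1G, overlapped in range. In vehicle libraries it was SLC39A14, SLC39A6, SLC39A10, SLC30A1, MT2A, MT1X, MTF1, MT1E and MT1G. There the ranges of SLC39A6 and SLC39A10, of SLC30A1 and MT2A, of MT1X and MTF1, and of MT1E and MT1G overlapped. MT2A thus stood next after SLC39A14 with HR-19011, at 14.1 FPKM, and overlapped SLC30A1 with vehicle.

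Counted together, 2 of the 7 tested members were called higher and 4 lower, with 1 not called. The background was 84.4% of all tested genes called, 46.4% higher and 38.0% lower, so being called does not set the members apart. The ranges of the groups did not overlap for 6 of the 7, against 85.2% of tested genes. The median absolute log2 fold change was 0.33 over the tested members and 0.47 over all tested genes. MT2A was the member with a change of at least 2-fold by this scale, which 18.5% of all tested genes reached with a call. The balance of higher and lower calls depends on the scaling: higher calls made up 55% of the calls on the deposited FPKM, 40.7% with TMM scaling, 46.3% with quantile normalization and 62.2% with TPM. All tested genes had a median of 0.07 on the deposited scale, which moved by -0.21 with TMM scaling, by -0.12 with quantile normalization and by 0.12 with TPM. Erythroid markers, EPCAM and CD3D moved with the groups as given above, and their part in these results was not tested.

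**Figure D4:**
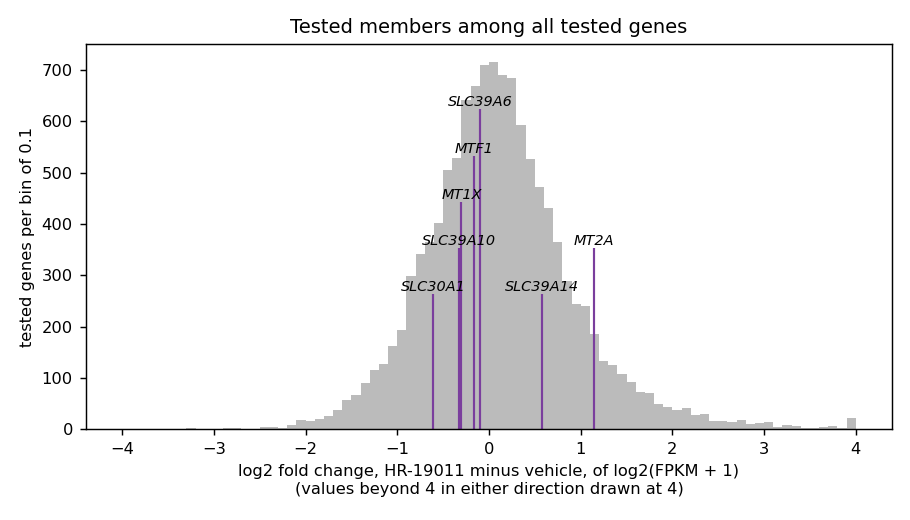
Histogram of the log2 fold change, HR-19011 minus vehicle on the log2(FPKM + 1) scale, of the 11856 tested genes, with the 7 tested members marked. MT2A, at 1.15, lies in the upper tail, above 90.7% of tested genes, and the other members lie between -0.61 and 0.58.

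The other genes of both transporter families put the members in context. Of 10 ZnT genes, 6 were tested, of which 4 were higher and 2 lower, with a median log2 fold change of 0.61 beside 0.07 for all tested genes, of which 84.4% were called, 46.4% higher and 38.0% lower. The higher ones were SLC30A5, SLC30A6 and SLC30A7, whose products load zinc into the early secretory pathway, ZnT5 and ZnT6 as a heterodimer, and SLC30A9, whose product exports zinc from mitochondria. SLC30A7 was at 3.10, 3.07 and 2.99 FPKM in the HR-19011 libraries, against 1.16, 1.35 and 1.21 FPKM in the vehicle libraries. Its mean FPKM was 2.46-fold higher, and its log2 fold change on the log2(FPKM + 1) scale was 0.86 (SE 0.0551, adjusted p = 5.82e-07 in limma). All HR-19011 libraries of SLC30A7 were higher; part of its RefSeq span overlaps DPH5, at 21.7 FPKM with HR-19011 and 14.1 FPKM with vehicle, and whether reads were counted by strand is not stated.

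SLC30A5 rose 1.54-fold, to 37.4 ± 0.726 FPKM with HR-19011 against 24.3 ± 0.891 FPKM with vehicle, and SLC30A6 rose 1.66-fold, to 14.3 ± 0.427 against 8.63 ± 0.301 FPKM (SD, n = 3 each). SLC30A9 was at 22.4, 22.2 and 22.6 FPKM in the HR-19011 libraries, against 18.0, 10.7 and 14.7 FPKM in the vehicle libraries, which varied more than for any other ZnT gene tested. It was called higher (log2 fold change 0.62, SE 0.142, adjusted p = 0.00286 in limma). The other lower gene beside SLC30A1 was SLC30A10, whose product exports mainly manganese. SLC30A10 fell 2.02-fold, to 1.38 ± 0.0556 FPKM with HR-19011 against 2.79 ± 0.0650 FPKM with vehicle (SD, n = 3 each). The untested SLC30A2, SLC30A3, SLC30A4 and SLC30A8 were under 0.5 FPKM in every library.

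Of 14 ZIP genes, 11 were tested, of which 5 were higher, 4 lower and 2 not called, with a median log2 fold change of 0.02. That share called is close to the 84.4% of all tested genes. SLC39A13, encoding ZIP13 of the Golgi and vesicles, which is needed for connective tissue, had the highest fold of the family. It was at 15.1, 14.2 and 15.6 FPKM in the HR-19011 libraries, against 2.53, 2.27 and 2.85 FPKM in the vehicle libraries. The groups were far apart, a 5.87-fold rise (log2 fold change 2.17, SE 0.0650, adjusted p = 4.28e-09 in limma). The antisense gene SLC39A13-AS1 overlaps its first part, and reads of that partner may be included, since whether reads were counted by strand is not stated.

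SLC39A4, encoding ZIP4, the importer of dietary zinc in the intestine, was the lowest by fold. It was at 14.6, 14.2 and 13.2 FPKM in the HR-19011 libraries, against 56.3, 55.4 and 55.3 FPKM in the vehicle libraries. Every HR-19011 library was far below every vehicle library, a 3.98-fold fall (log2 fold change -1.92, SE 0.0401, adjusted p = 5.62e-10 in limma). The long noncoding RNA gene LOC124902041 overlaps a large part of the SLC39A4 span, from 144413956 to 144416844 on chromosome 8. How reads of the overlap were assigned is not stated. SLC39A4 and SLC39A13 were the ZIP genes past 2-fold, and in vehicle libraries SLC39A4, in a range overlapping that of SLC39A3, followed SLC39A7 in level.

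SLC39A7, encoding ZIP7, which releases zinc from the endoplasmic reticulum, was the most abundant zinc transporter gene measured. It rose 1.71-fold, to 150.7 ± 1.69 FPKM with HR-19011 against 88.3 ± 1.80 FPKM with vehicle (SD, n = 3 each). SLC39A11 rose 1.58-fold and SLC39A9 1.19-fold, and the SLC39A9 difference disappeared after TMM scaling (log2 fold change -0.00047, adjusted p = 0.992 in limma). SLC39A8, the importer that mouse erythroid cells use early in maturation, was called lower, at 8.74 ± 0.214 FPKM with HR-19011 against 10.8 ± 1.05 FPKM with vehicle (SD, n = 3 each; limma, adjusted p = 0.00286). SLC39A1, whose span overlaps CREB3L4 at one end, fell 1.11-fold (log2 fold change -0.14). Its difference was larger after TMM scaling (-0.39, adjusted p = 2.02e-06 in limma), and the call was lost after conversion to TPM (-0.02, adjusted p = 0.428 in limma) and quantile normalization (-0.01, adjusted p = 0.604 in limma). SLC39A3, a plasma membrane importer, was level at 54.2 ± 0.786 FPKM with HR-19011 and 53.4 ± 1.93 FPKM with vehicle (SD, n = 3 each), with a 95% confidence interval of the log2 fold change from -0.05 to 0.10, though after TMM scaling it was called lower and after conversion to TPM and quantile normalization higher. SLC39A2, SLC39A5 and SLC39A12 were under 0.1 FPKM in every library.

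**Figure D5:**
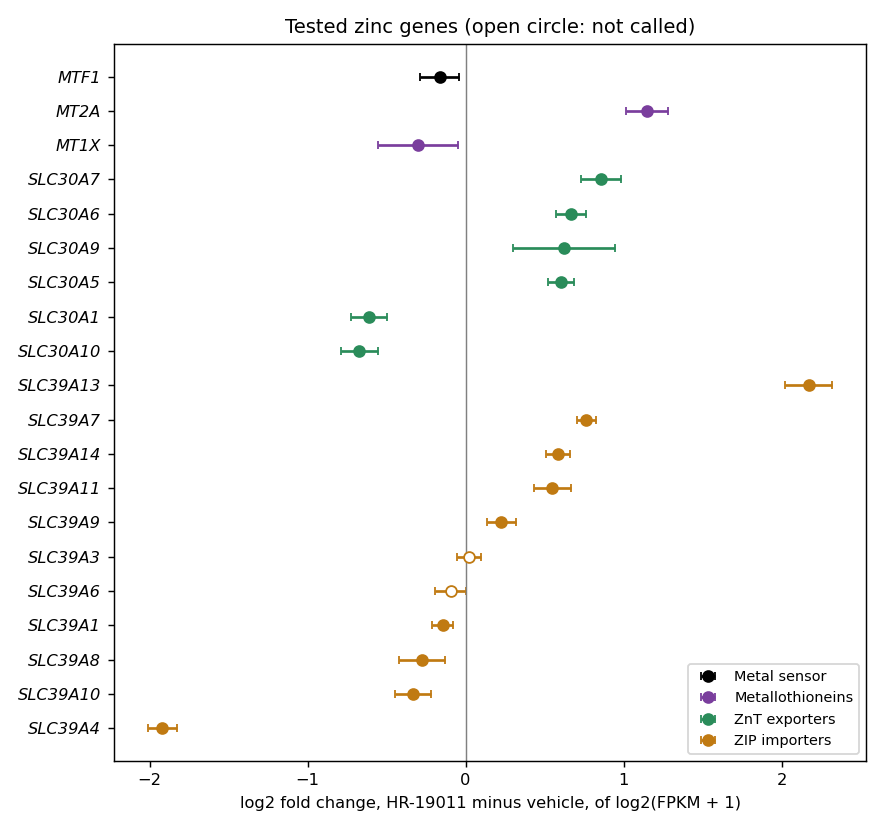
Log2 fold change, HR-19011 minus vehicle on the log2(FPKM + 1) scale, of MTF1 and the tested metallothionein, ZnT and ZIP genes, with 95% confidence intervals from limma; open circles were not called. MT2A lies at 1.15 and MT1X at -0.30, SLC30A1 and SLC30A10 lie below 0 and the other tested ZnT genes above it, and the ZIP genes run from 2.17 for SLC39A13 to -1.92 for SLC39A4.

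Genes outside both families that have been reported as MTF1 targets, in human or mouse, were mixed in direction. Of the 6 listed, 4 were tested, with 1 higher, 1 lower and 2 not called, beside 46.4% higher and 38.0% lower among all tested genes. GCLC, which encodes the catalytic subunit of the first enzyme of glutathione synthesis and is also an NRF2 target, was at 16.7, 16.1 and 15.9 FPKM in the HR-19011 libraries, against 4.97, 4.05 and 4.30 FPKM in the vehicle libraries. SLC40A1, which encodes the iron exporter ferroportin, was at 6.61, 6.34 and 6.32 FPKM in the HR-19011 libraries, against 13.1, 11.9 and 13.1 FPKM in the vehicle libraries. GCLC rose 3.65-fold and SLC40A1 fell 1.98-fold, each without overlap of the groups. SELENOH, a nucleolar selenoprotein gene, and TXNRD2, a mitochondrial thioredoxin reductase gene, overlapped between groups and were not called (adjusted p = 0.397 and adjusted p = 0.625 in limma). Both depended on the scaling: after TMM scaling both were called lower, SELENOH was called higher after quantile normalization and TXNRD2 after conversion to TPM. PGF and HAMP were under 0.5 FPKM in every library.

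The genes nearest to MT2A and SLC30A1 in pattern were sought by Euclidean distance over the 6 libraries of log2(FPKM + 1) less its vehicle mean. For MT2A they were PPP1R26-AS1 (distance 0.0876), SRGAP2B (0.0918) and SMIM19 (0.0925), where the median tested gene lay at 1.94. For SLC30A1 they were the histone variant gene H2AZ1 (distance 0.0377), the mitotic kinase gene AURKA (0.0556) and ADH5 (0.0610), where the median tested gene lay at 1.28. H2AZ1 was at 235 ± 4.99 FPKM with HR-19011 and 360 ± 13.4 FPKM with vehicle (SD, n = 3 each). With 2 groups and little spread within them, such a distance mostly reflects a like difference between groups.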

How the data were processed

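Libraries of K562 cells were made with a stranded mRNA kit, per the labels' protocols. The authors deposited 1 FPKM value per NCBI gene and library, per the file headers. Among the tools in the submitters' processing notes, which give no roles, are HISAT2 2.1.0 and StringTie 2.1.3b, with the build GRCh38. Steps of 1 read were looked for in single-transcript genes spanning at most 1500 bases: at the best step of many, 27.3% to 31.0% of a library's values came within 0.1 of whole, where 1 fixed step gives 20% by chance, so reads were not recovered and no count model or counting interval was used. At most 0.0244% of values above 0 were identical within a group, so no library was a duplicate.

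Groups came from the sample titles. The 11856 genes whose 6 libraries averaged 1 FPKM or more entered limma 3.58.1 (R 4.3.3) as log2(FPKM + 1). Group was the only term, with a variance trend, two-sided tests, Benjamini-Hochberg adjustment over all tested genes and a threshold of 0.05. The test was tried on simulated data in which far fewer genes were changed than were called here, so that trial does not cover this setting. The pseudocount understates changes of low genes; folds without log2 are ratios of mean FPKM. Genes named by rule are the 9 members, all metallothionein, SLC30A and SLC39A genes, up to 4 genes with the smallest p of each of 2 further lists, and the 3 nearest in pattern to SLC30A1 and MT2A; MT1CP, also listed, was not matched and is not used here. The cell type markers EPCAM, CD3D, MS4A1 and TAL1, the untested targets PGF and HAMP, and genes that overlap a named gene were named after their values were seen. The members and lists were chosen with earlier results of these data known. Alternatives were other pseudocounts, filters and scalings, a fit without the trend, a block by replicate number and each library left out. Promoters and positions are from RefSeq tables (GRCh38.p14), matched by symbol or NCBI gene identifier.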

Additional observations from a re-analysis of the deposited data

How the results depend on the processing

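Under the 15 alternatives, the calls of MT2A, SLC30A1, SLC39A10 and SLC39A14 kept their direction and their side of the threshold, with log2 fold changes of 0.82 to 1.33 for MT2A, -0.85 to -0.37 for SLC30A1, -0.55 to -0.22 for SLC39A10 and 0.35 to 0.72 for SLC39A14. Members called lower, 4 as reported, numbered 2 after conversion to TPM and 2 under the stricter filter (mean of 5 FPKM), and 2 to 4 with each library left out. Under the stricter filter MTF1 and MT1X, averaging 2.96 and 3.13 FPKM over the libraries, were not tested, and SLC30A1 and SLC39A10 kept their calls. Metallothionein genes called lower, 1 as reported (MT1X), numbered 0 after conversion to TPM, under the stricter filter and without a filter, and 0 to 1 with each library left out; those called higher numbered 2 without a filter. Under the stricter filter, 1 ZnT gene and 5 copper genes were called lower, since fewer genes were tested, and 3347 of all genes were called higher, against 5506 as reported and 8828 without a filter. Reported MTF1 targets called higher, 1 as reported, numbered 2 after conversion to TPM, without a filter and after quantile normalization, and those called lower numbered 3 after TMM scaling. The fold of summed metallothionein FPKM was 1.53 after TMM scaling. Signs turned for SLC39A6 (0.016 after conversion to TPM), SLC39A3 (-0.22 after TMM scaling and -0.0028 without vehicle replicate 1, in a leave-one-out range of -0.0028 to 0.048), SLC39A9 (-0.00047 after TMM scaling), SELENOH (0.085 after conversion to TPM and 0.11 after quantile normalization) and TXNRD2 (-0.20 after TMM scaling and -0.020 without vehicle replicate 1, in a leave-one-out range of -0.020 to 0.089); apart from scaling and filtering themselves, the cause was not tested. Deviations from the group mean correlated at -0.0343, -0.00448 and -0.108 between same-numbered libraries, and at -0.0338 to 0.0697 between libraries of other numbers. With 3 libraries per group, such values cannot show whether the numbers pair the libraries, and the labels do not state it. With the replicate number as a block, 5435 genes were called higher and 4445 lower, and the members called higher and lower stayed at 2 and 4. Depth is unknown, so for MT1E and MT1G the values cannot tell a few reads from none.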

Other observations

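Copper handling genes, listed because metallothioneins also bind copper, were mostly lower after HR-19011. Of 12 genes 11 were tested, with 2 higher, 8 lower and 1 not called, and a median log2 fold change of -0.40 beside 0.07 for all tested genes, of which 38.0% were called lower. SLC31A1, which encodes the plasma membrane copper importer CTR1, was at 37.6, 37.7 and 38.2 FPKM in the HR-19011 libraries, against 12.6, 12.7 and 12.9 FPKM in the vehicle libraries. It rose 2.97-fold, with no overlap of the groups. CCS, the chaperone that loads copper into superoxide dismutase, rose 1.57-fold, to 14.2 ± 0.757 FPKM with HR-19011 against 9.02 ± 0.875 FPKM with vehicle (SD, n = 3 each). Its client gene SOD1, encoding the copper and zinc superoxide dismutase, fell 1.71-fold, to 149.6 ± 2.74 FPKM with HR-19011 against 256 ± 4.36 FPKM with vehicle (SD, n = 3 each). SCO1, which delivers copper to cytochrome c oxidase, fell 2.30-fold, to 2.38 ± 0.0589 FPKM with HR-19011 against 5.48 ± 0.162 FPKM with vehicle (SD, n = 3 each).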
